A study of Mus musculus with 6 samples.

Results

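The transcription factors that build enteroendocrine cells were followed in the duodenum of mice whose intestine carries an altered form of Nkx2.2. The 9 genes taken are Neurog3, Neurod1, Pax4, Pax6, Isl1, Insm1, Rfx6, Foxa1 and Foxa2. They were found by gene symbol, and each of the 9 was present once among the 23026 gene symbols with a successful estimate in every library. RNA-seq had been done on the stretch of duodenum next to the stomach, from mice of mixed background aged 6 weeks, with 3 controls and 3 mutants. Control 1 was Nkx2.2flox/+ with one Rosa26Tomato reporter allele, control 2 carried the reporter allele alone, and control 3 was WT. All 3 mutants were Nkx2.2flox/SD with Villin-Cre/+, and mutants 1 and 3 also carried one Rosa26Tomato allele. Villin-Cre acts throughout the intestinal epithelium and not only in endocrine cells, and the other copy, the SD allele, alters the NK2-specific domain and is present in every cell of the animal. No control carried Cre or an SD allele, so the effects of Cre, of losing the floxed copy and of the SD form cannot be told apart.

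Enteroendocrine cells are rare hormone-producing cells of the gut epithelium that arise from crypt progenitors. Neurog3, switched on briefly in a progenitor released from Notch signalling, starts the endocrine program and activates Neurod1, Insm1, Rfx6 and Pax4. Pax6, Isl1 and other factors act later, as cells settle on particular hormones, while Foxa1 and Foxa2 open chromatin in many gut epithelial cells and also serve hormone genes such as that of proglucagon. Nkx2.2 works in the same cascade, below Neurog3. On mm9, Neurog3 spans chr10:61595838-61597511, Pax4 chr6:28392334-28399340 on the minus strand, Pax6 chr2:105509053-105537521 and Rfx6 chr10:51397566-51450235.

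The depth recovered from the ratio of coverage to FPKM was 19.6 to 21.4 M reads (M for mega) for control libraries. For mutant libraries it was 19.1 to 22.9 M. Duodenal and epithelial markers were present in every library: Pdx1 was at 53.5 to 78.5 FPKM, Cdx2 at 55.4 to 73.8 FPKM and the villin gene Vil1 at 539 to 672 FPKM. FPKM is the number of fragments per kilobase of transcript and per M mapped reads, so levels can be compared between genes. Levels of Y-linked genes and Xist put control 1 and mutant 1 as males and the other 4 mice as females. The targeted gene, Nkx2-2, was at 1.07, 0.647 and 0.716 FPKM in the controls, against 0.564, 0.772 and 0.910 FPKM in the mutants, with overlapping groups, and a total level cannot separate RNA of the SD allele from RNA of the normal one.

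Pax4 was the only one of the 9 factors with an unadjusted p under 0.05, and its level in the mutants was below that in every control. Pax6 and Foxa2 were higher in every mutant than in any control, by narrow margins, and the other 6 factors overlapped between the groups. With limma on log2(FPKM + 0.1), 0 of the 9 were called at a Benjamini-Hochberg adjusted p under 0.05 over the 14642 genes tested, where 0% of all genes were called. At an unadjusted limma p under 0.05 stood 1 of the 9, against 2.84% of all genes (0.861% lower and 1.98% higher in mutants). The groups did not overlap for 3 of the 9, 2 higher and 1 lower in mutants, against 7.57% of all genes (4.14% higher and 3.43% lower). The median log2 change over the 9 was 0.10 with 6 means higher and 3 lower, beside a median of 0.0042 over all genes tested.

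**Figure D1:**
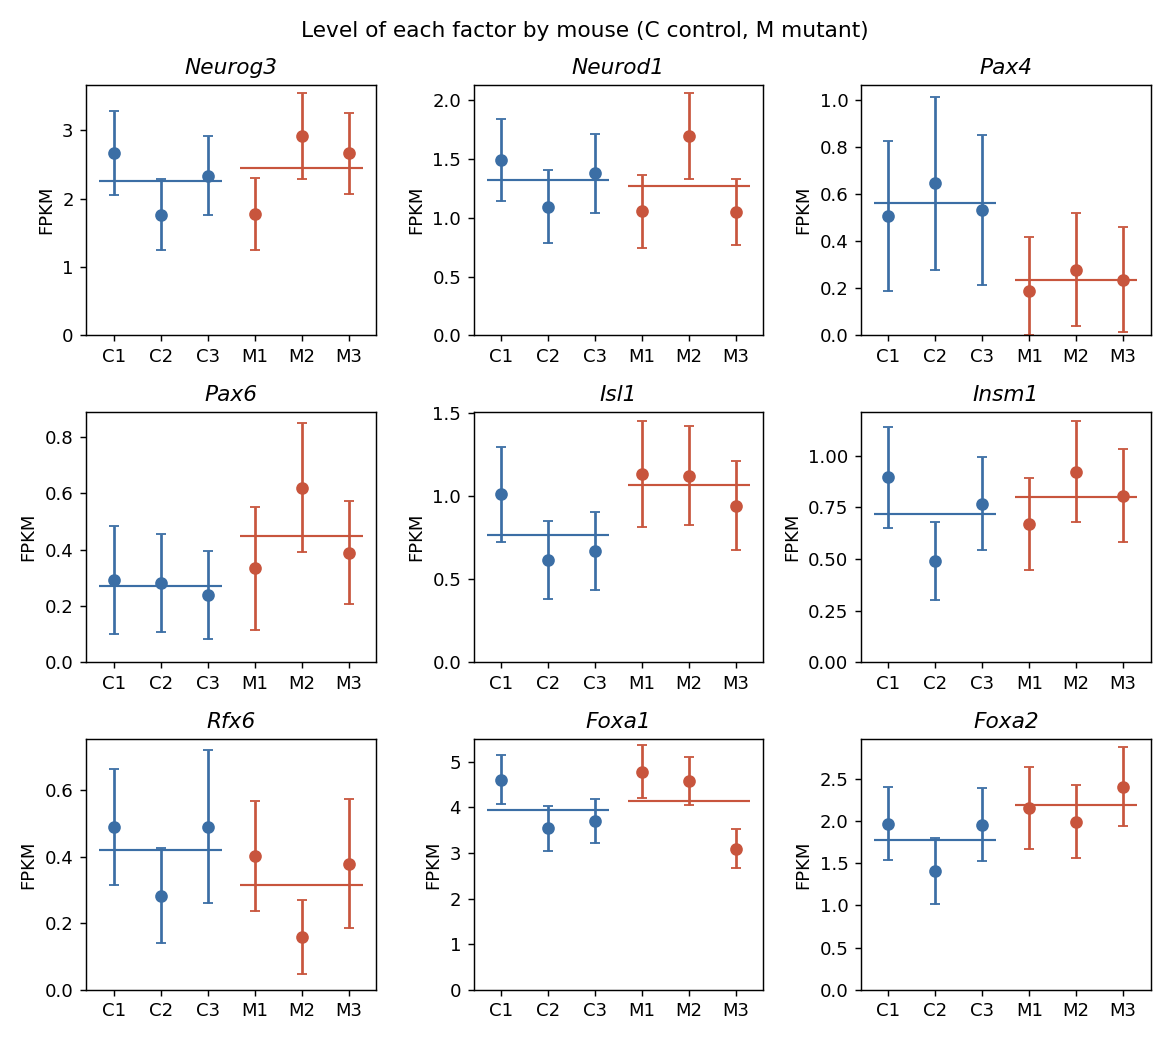
Level of each factor in each mouse in FPKM (linear axes from 0), with C1 to C3 the controls and M1 to M3 the mutants; bars are the intervals deposited with each value and horizontal lines are group means of 3 mice. The 3 Pax4 points of the mutants, 0.190 to 0.278 FPKM, lie below the control points at 0.507 to 0.646 FPKM.

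Neurog3, the basic helix-loop-helix factor that commits a progenitor to the endocrine fate, was at 2.67, 1.76 and 2.33 FPKM in controls 1 to 3. In mutants 1 to 3 it was at 1.77, 2.91 and 2.66 FPKM, so control 2 and mutant 1 were the low libraries and the groups overlapped. These values rest on 76, 46 and 66 reads in controls and 45, 85 and 81 reads in mutants. The log2 change, mutant minus control, was 0.10 (SE 0.23; 95% interval -0.44 to 0.65; limma adjusted p = 1.0), and it turned to -0.06 without control 2 and to -0.03 without mutant 2. Split by sex, Neurog3 was lower in the male mutant than in the male control, and both female mutants were above both female controls.

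Neurod1, a basic helix-loop-helix factor that Neurog3 activates and that serves terminal differentiation, was at 1.49, 1.09 and 1.38 FPKM in the controls, against 1.05, 1.70 and 1.05 FPKM in the mutants. Mutant 2 was above all controls and mutants 1 and 3 below all of them, so the mutants spanned the controls. The log2 change was -0.08 (SE 0.23; 95% interval -0.62 to 0.47), and its sign turned without control 1, mutant 1 or mutant 3 (0.0082, 0.03 and 0.03). Insm1, a zinc finger factor of endocrine precursors, was at 0.897, 0.490 and 0.769 FPKM in the controls, against 0.670, 0.924 and 0.807 FPKM in the mutants. Control 2 was again the lowest library and mutant 2 the highest. Its log2 change was 0.16 (SE 0.25; 95% interval -0.44 to 0.76) and turned to -0.06 without control 2.

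Neurog3 and Insm1 moved alike from mouse to mouse. Likeness was measured as the root mean square difference of log2(FPKM + 0.1) over the 6 libraries, with each gene centred on its own mean. Insm1 differed from Neurog3 by 0.12, beside a spread of 0.27 for either gene around its own mean, and was the nearest of the other 8 factors to it. Insm1 per Neurog3, as a ratio of FPKM values, stayed between 0.278 and 0.378 in the 6 libraries. Among 48 other genes of endocrine and epithelial lists, the nearest to Neurog3 were Rbpj (0.15) and Atoh1 (0.17), to Insm1 Atoh1 (0.13) and Vwa5b2 (0.16), and to Neurod1 Atoh1 (0.13) and Cdx2 (0.17). Rbpj is the DNA-binding partner of Notch, and Atoh1 the factor that opens the secretory lineage. All genes compared come from the same 6 libraries. Insm1 rests on 54, 27 and 46 reads in controls and 36, 57 and 52 reads in mutants. Counting error was not set apart from differences between mice in these likenesses.

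Rfx6, a winged-helix factor that keeps endocrine cells in their differentiated state, was at 0.489, 0.283 and 0.490 FPKM in controls. It was at 0.403, 0.158 and 0.379 FPKM in mutants, so mutant 2, the library highest in Neurog3, Neurod1 and Insm1, was lowest in Rfx6. The values rest on 34, 18 and 32 reads and on 25, 11 and 27 reads. The groups overlapped, and the log2 change of -0.36 (SE 0.35; 95% interval -1.20 to 0.47) shrank to -0.06 without mutant 2 and was -0.57 without control 2.

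Pax4, a paired-type homeodomain factor of early endocrine cells that is needed for serotonin and somatostatin cells of the duodenum, was at 0.507, 0.646 and 0.533 FPKM in controls 1 to 3. It was at 0.190, 0.278 and 0.237 FPKM in mutants 1 to 3. The highest mutant thus lay below the lowest control. The levels rest on 12, 14 and 13 reads in controls and 4, 7 and 6 reads in mutants. Scaled for depth, the ratio of summed reads (39 and 17), mutant to control, was 0.425, with an exact 95% interval of 0.225 to 0.768. This interval covers counting error only. The log2 change was -0.99 on log2(FPKM + 0.1), where the added 0.1 shrinks differences between low values (SE 0.24; 95% interval -1.55 to -0.42; limma unadjusted p = 0.0042, adjusted p = 1.0). The authors' deposited table, made with DESeq, gives mean normalized counts of 14.6 and 5.52 for Pax4 and a fold change of 0.378 (p = 0.0375; adjusted p = 1.0). Pax4 stayed lower without each mouse in turn (-1.08 to -0.89) and among the females alone (-0.94).

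The intervals deposited with each Pax4 value were wide. They ran from 0.189 to 0.826 FPKM in control 1 and from 0.0378 to 0.519 FPKM in mutant 2, and the lower end was 0 in mutant 1. In tissue RNA, fewer cells that express Pax4 and less Pax4 RNA per cell cannot be told apart.

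Pax6, a paired-type homeodomain factor of later endocrine cells that acts on genes such as Gip and that of proglucagon, was at 0.293, 0.282 and 0.240 FPKM in controls. It was at 0.334, 0.620 and 0.389 FPKM in mutants. Every mutant was above every control, with mutant 2 well above the rest and mutant 1 close to control 1. These values rest on 16, 13 and 12 reads and on 16, 32 and 21 reads. The ratio of summed reads was 1.64 (exact 95% interval for counting error 1.10 to 2.48), and the log2 change was 0.53 (SE 0.28; 95% interval -0.12 to 1.18; limma unadjusted p = 0.098). Without mutant 2 it was 0.31.

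Isl1, a LIM-homeodomain factor of several hormone-producing cell types, was at 1.01, 0.617 and 0.670 FPKM in the controls, against 1.13, 1.12 and 0.942 FPKM in the mutants. Control 1, a male, stood with the mutants, and controls 2 and 3 were below all mutants, so the groups overlapped through control 1 and mutant 3. The reads were 50, 28 and 33 in controls and 50, 57 and 50 in mutants. The log2 change was 0.45 (SE 0.22; 95% interval -0.07 to 0.98; limma unadjusted p = 0.081), and it was 0.65 without control 1.

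Pax4 and Pax6, both paired-type factors, lay on opposite sides in the mutants, and the ratio of one to the other gives this within each library. Pax6 per Pax4 was 0.577, 0.436 and 0.450 in controls and 1.76, 2.23 and 1.64 in mutants, so the lowest mutant was above the highest control. Pax4 per Neurog3 was 0.190, 0.366 and 0.228 in controls and 0.107, 0.0955 and 0.0892 in mutants, also apart. Pax6 per Neurog3 was 0.110, 0.160 and 0.103 in controls and 0.188, 0.213 and 0.146 in mutants, where mutant 3 lay below control 2. These ratios were chosen after the values were seen and are given with no test. They do not depend on how libraries were scaled to one another, since both genes come from the same library.

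**Figure D2:**
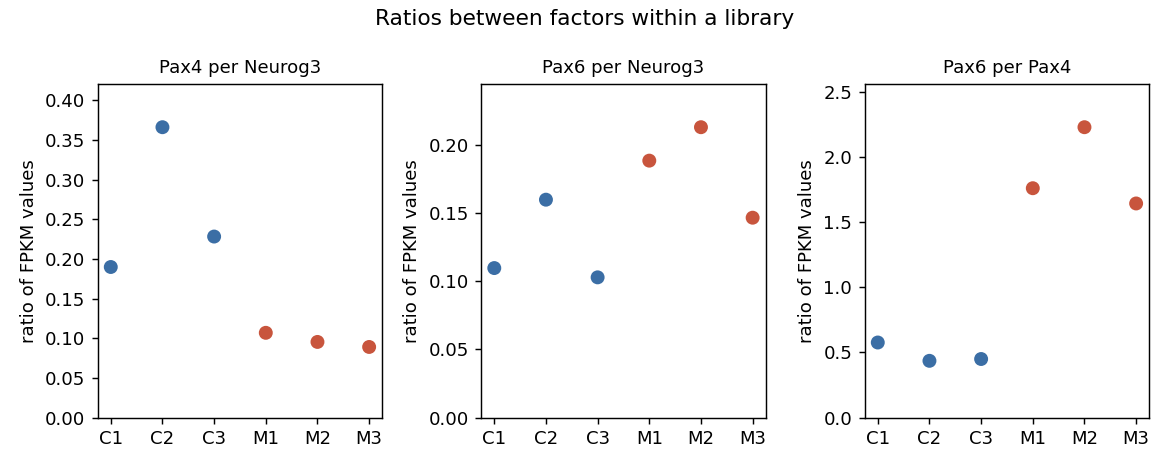
Ratio of FPKM values between factors within each library, for controls C1 to C3 (blue) and mutants M1 to M3 (red), 1 point per mouse, linear axes from 0. Pax4 per Neurog3 is 0.190 to 0.366 in controls and 0.0892 to 0.107 in mutants, and Pax6 per Pax4 is 0.436 to 0.577 and 1.64 to 2.23.

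Foxa1 and Foxa2 are forkhead factors of the gut epithelium, found in goblet and crypt cells as well as in endocrine cells. Foxa1 was at 4.61, 3.55 and 3.69 FPKM in the controls, against 4.78, 4.58 and 3.09 FPKM in the mutants, and mutant 3 was the lowest of all 6. Its log2 change of 0.05 (SE 0.20; 95% interval -0.41 to 0.52) turned negative without control 2, mutant 1 or mutant 2 (-0.02, -0.06 and -0.03). Foxa2 was at 1.97, 1.41 and 1.96 FPKM in the controls, against 2.16, 2.00 and 2.41 FPKM in the mutants. All mutants were above all controls, but mutant 2 and control 1 differed by far less than the spread within either group. The log2 change of Foxa2 was 0.29 (SE 0.18; 95% interval -0.12 to 0.71; limma unadjusted p = 0.137), on 81, 53 and 80 reads in controls and 79, 84 and 106 reads in mutants. Without control 2 it was 0.14. Nearest to Foxa1 among the 48 other genes was Sox9 (0.090), a factor of crypt cells, and nearest to Foxa2 was Vwa5b2 (0.12).

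**Figure D3:**
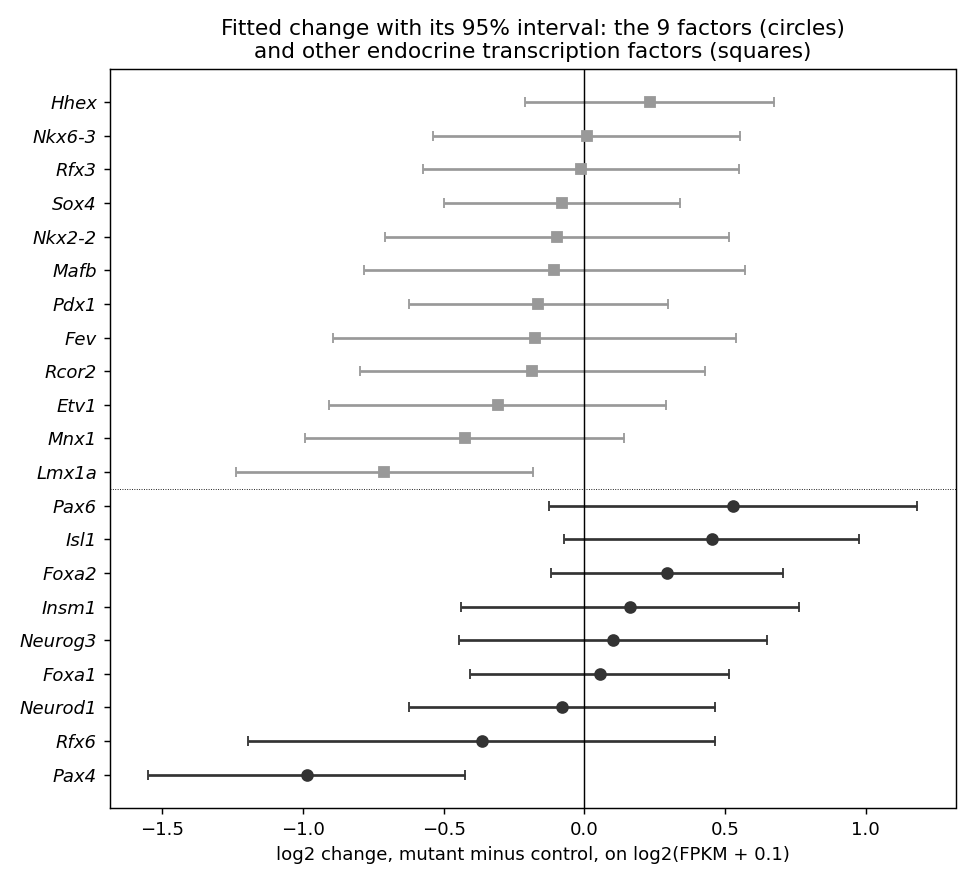
Fitted log2 change, mutant minus control, on log2(FPKM + 0.1), with its 95% interval, for the 9 factors (circles) and the 12 other endocrine transcription factors that were tested (squares). The interval of Pax4 (-1.55 to -0.42) and that of Lmx1a (-1.24 to -0.18) lie below 0, and the other intervals cross it.

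In controls the order of levels was Foxa1, Neurog3, Foxa2, Neurod1, Isl1, Insm1, Pax4, Rfx6 and Pax6, from 3.95 ± 0.579 FPKM for Foxa1 to 0.271 ± 0.028 FPKM for Pax6 (SD, n = 3). Foxa1 stood apart from Neurog3, which was next at 2.26 ± 0.458 FPKM. Neurog3 and Foxa2 overlapped, as did Foxa2 and Neurod1, Isl1 and Insm1, Insm1 and Pax4, and Rfx6 and Pax6. Pax4, at 0.562 ± 0.074 FPKM in controls, was above Rfx6 in each control library by range. In mutants, at 0.235 ± 0.044 FPKM, it overlapped Rfx6 and lay below Insm1 without overlap. All 9 are low to middling in whole duodenum: Foxa1 had a higher mean than 60.3% of the gene symbols and Pax6 than 39.8%.

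The wider endocrine program gave no call either. Of 17 other endocrine transcription factors 12 passed the filter on low values, 2 with higher and 10 with lower means, and 0 were called over all genes. Lmx1a, a factor of serotonin cells, was at 0.642, 0.522 and 0.631 FPKM in the controls, against 0.301, 0.291 and 0.391 FPKM in the mutants, without overlap (log2 change -0.71, SE 0.22; limma unadjusted p = 0.015). Among the 48 list genes compared, Lmx1a was the nearest to Pax4 in its values over the 6 mice, at 0.27, followed by Mnx1 at 0.31. Pax4 had a spread of 0.51 around its own mean. The difference between controls and mutants is part of this likeness, which is therefore not a separate observation. Mnx1, a homeodomain factor, was at 0.801 ± 0.055 FPKM in the controls, against 0.586 ± 0.190 FPKM in the mutants, Etv1 at 1.40 ± 0.380 and 1.10 ± 0.247 FPKM, and Hhex, a factor of somatostatin cells, at 1.29 ± 0.294 and 1.51 ± 0.089 FPKM (SD, n = 3). Nkx2-2 itself had a log2 change of -0.10 (SE 0.26).

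Of 11 genes listed for Notch signalling and the secretory choice, all 11 were tested, 6 had higher and 5 lower means, and 0 were called. Hes6, which Neurog3 activates in progenitors, was at 46.7 ± 1.44 and 49.8 ± 1.89 FPKM, and Spdef, a goblet and Paneth factor, at 10.7 ± 4.67 and 12.5 ± 1.96 FPKM. Of 13 genes shared by endocrine cells, 12 were tested, 6 with higher and 6 with lower means, the median log2 change was -0.0047, and 0 were called. In this list Chga, which encodes the granule protein chromogranin A, was at 28.2 ± 7.25 FPKM in the controls, against 15.2 ± 2.96 FPKM in the mutants, without overlap (log2 change -0.88, SE 0.21; limma unadjusted p = 0.0038, adjusted p = 1.0). When each library was scaled to this list, Pax4 was at -0.93 and Pax6 at 0.59 on the log2 scale. Of 13 broad epithelial transcription factors 5 had higher and 8 lower means and 0 were called. Klf5, a crypt factor, was at 56.0 ± 4.86 and 43.3 ± 1.82 FPKM, and Gata6 at 33.9 ± 4.19 and 31.1 ± 2.17 FPKM.

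Markers of neighbouring tissue differed from mouse to mouse. Several of the 9 factors are also islet factors. The insulin gene Ins2 was at 0.971, 0 and 2.34 FPKM in the controls, against 0.435, 3.56 and 0.691 FPKM in the mutants. Mutant 2, highest in Ins2, was also highest in Neurog3, Neurod1, Pax6 and Insm1, while control 2, where Ins2 was at 0, was lowest in Neurog3 and Insm1. Rfx6, also an islet factor, was lowest in mutant 2, and Pax6 was lowest in control 3, where Ins2 was second highest. The acinar gene Ctrb1 was at 14.6, 0.151 and 8.20 FPKM in the controls, against 0, 20.3 and 0.193 FPKM in the mutants. Of 15 islet and acinar markers 10 were tested and 0 differed without overlap, against 7.57% of all genes tested. With 10 genes, a count of 0 cannot be told apart from this share. Those with the smallest p were Cela1 (log2 change 0.34, SE 0.32) and Prss2 (-1.52, SE 1.62). The summed level of the list was 105 to 196 FPKM in controls and 107 to 148 FPKM in mutants. Most of that sum was Slc2a2, a glucose transporter that enterocytes also express (80.1 to 164 FPKM in controls and 92.8 to 137 FPKM in mutants), and control 2, with Ins2 at 0, summed to 105 FPKM. The part of pancreatic tissue in the values of the 9 factors, Pax4 among them, was not tested. Without mutant 2, which had the highest Ins2 value, Pax4 was at -1.08 on the log2 scale. In that fit Ctrb1 was at 14.6, 0.151 and 8.20 FPKM in the controls, against 0 and 0.193 FPKM in mutants 1 and 3.

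Muc6, a mucin of Brunner glands, was at 79.7, 7.19 and 1.76 FPKM in the controls, against 63.8, 24.3 and 8.30 FPKM in the mutants. The 3 libraries highest in Muc6, control 1, mutant 1 and mutant 2, were also the 3 highest in Foxa1. Foxa2 was instead highest in mutant 3, at 2.41 FPKM. It was near equal in control 1 and control 3, at 1.97 and 1.96 FPKM, the controls highest and lowest in Muc6. The summed level of 15 stomach and pyloric markers, mostly that of Tff2, was 123 to 4558 FPKM in controls and 359 to 4613 FPKM in mutants. Of the 8 tested, 7 had higher means in mutants, with a median log2 change of 0.89, and 0 were called. Tff1 was higher in mutants without overlap, on 16, 4 and 4 reads in controls and 20, 28 and 27 reads in mutants. Gif was lower without overlap, at 0.742, 0.0386 and 0.427 FPKM in controls and 0 in each mutant, so control 2 lay near 0. The gastrin gene Gast, with overlap, was at 0.191, 0 and 0 FPKM in controls and at 3.00, 1.30 and 0.178 FPKM in mutants (limma unadjusted p = 0.013). For goblet and Paneth markers, all 9 tested had higher means in mutants and 0 were called, with Tff3 higher without overlap (3539 ± 309 and 4385 ± 440 FPKM). Clca3, a goblet cell gene, was at 438 ± 53.3 and 556 ± 108 FPKM. For 14 enteric neuron and glia markers the summed level was 20.5 to 31.2 FPKM in controls and 23.2 to 29.7 FPKM in mutants. Phox2a was lower in mutants without overlap (0.400 ± 0.071 and 0.171 ± 0.099 FPKM). Snap25, a synaptic gene, was at 3.20 ± 0.897 and 2.50 ± 0.495 FPKM. The part of these cells in the values of the 9 factors was not tested.

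Transcript forms were examined for Pax4, Pax6 and Rfx6, the 3 factors with more than 1 form in the isoform tables. The other 6 have 1 form each. The forms of Pax4 share a start and differ within the coding part. Their lengths are 1357, 1318 and 1315 bases, so the longest exceeds the next by 39 bases, and the next exceeds the shortest by 3. In the GENCODE vM1 annotation of the same genome build, mm9, a coding exon of Pax4 at chr6:28393873-28393928 on the minus strand exists with and without its first 39 bases. The further 3 bases match in length an optional stretch of another exon, at chr6:28393442-28393583. These matches to the forms rest on length alone. The first exon is shown because its optional stretch has the length of the larger difference, with those 39 bases in capitals.
Pax4 exon: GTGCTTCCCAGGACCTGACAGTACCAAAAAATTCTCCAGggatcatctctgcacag
The forms of Pax6 include pairs that share a start and differ by 42 bases, which is the length of a coding exon at chr2:105524908-105524949 on the plus strand, known as exon 5a. It adds residues within the paired domain and changes which DNA the protein prefers. It is shown whole, in capitals as optional bases.
Pax6 exon 5a: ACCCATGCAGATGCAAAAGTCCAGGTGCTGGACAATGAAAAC

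Nearly all Pax4 reads of a library were assigned to a single form, and which form it was did not follow genotype. The assignment is an estimate, on 4 to 14 reads a library and between forms that differ by 42 bases at most. Whether mice differ in the form they use was not tested. In controls 1 and 2 and in mutants 1 and 3, the shortest form, without the 39 bases, took 11.9 of 12, 13.9 of 14, 3.85 of 4 and 5.86 of 6 reads. In control 3 and mutant 2 the longest form took all 13 and all 7 reads. The shortest form, NM_001159926, thus read 0 in 1 control and 1 mutant, and its log2 change was -0.75 (SE 0.94; limma adjusted p = 1.0), with a larger SE than the gene total. Without control 3 it was -1.66, without control 1 -0.37 and without mutant 2 -0.21. Summed over each group, this form had 26 reads in controls and 10 in mutants, and the longest form 13 and 7. Neither form separated the groups without overlap, as the sum over forms did.

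For Pax6, the form of 2563 bases, which starts at the first start, 105509053 on chromosome 2, and is the shorter of its pair, took all reads in controls 2 and 3 and in mutants 2 and 3. These were 13, 12, 32 and 21 reads. In mutant 1 it took 10.8 of 16 reads, and 5.25 went to the form of 3119 bases from a later start. In control 1 it took 0, and the reads were split between a form of 2817 bases from another start (12.3) and the form of 2605 bases (3.66), which is longer by the 42 bases. Reads assigned to the 2605-base form therefore appeared in control 1 alone, and at 3.66 reads this assignment is an estimate. The 2563-base form, NM_001244201, differed by 1.07 on the log2 scale (SE 0.65; limma adjusted p = 1.0). Without control 1, where it was at 0, it was 0.45.

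The forms of Rfx6 start at 51397566 and 51405324 on chromosome 10. The earlier start took 34.0, 18.0 and 17.6 reads in controls and 25.0, 8.78 and 17.6 reads in mutants. The later start took 14.4 reads in control 3, 2.22 in mutant 2 and 9.37 in mutant 3, and 0.04 at most in the other 3 libraries. Both groups therefore held libraries with reads assigned to the later form and libraries with almost none, and these assignments are estimates. The log2 change of the earlier form was -0.36 (SE 0.46). It was -0.07 without mutant 2, -0.65 without mutant 1 and -0.14 without control 1. Of 16 transcripts of the 9 genes, 9 passed the filter and 0 of these were called at an adjusted p under 0.05, against 0.0279% of 17922 isoforms tested. Over all these isoforms, 3.53% had an unadjusted p under 0.05 and 8.50% did not overlap between the groups.

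**Figure D4:**
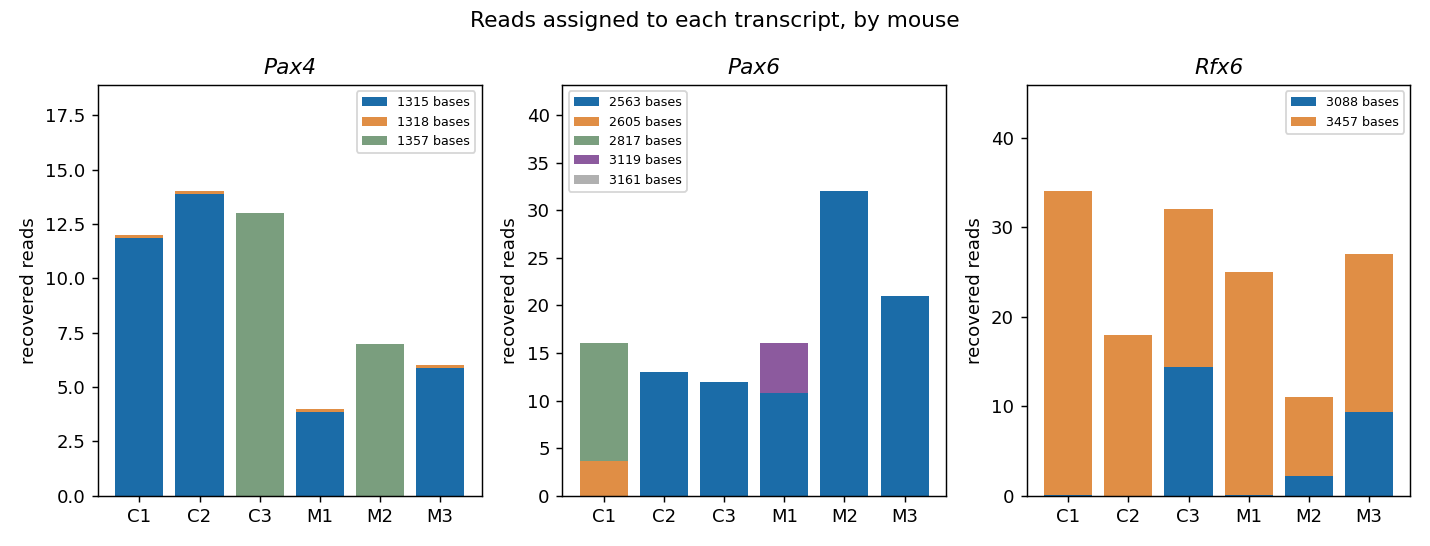
Recovered reads assigned to each transcript form, named by its length in bases, in controls C1 to C3 and mutants M1 to M3; stacked bars on a linear axis from 0. The Pax4 reads of C3 (13) and M2 (7) sit in the 1357-base form, and those of the other 4 mice in the 1315-base form.

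The promoter stretches of 3 factors are given because the read assignments above turn on their starts, and because Neurog3 heads the cascade. Each is the 250 bases before the start, from RefSeq (build GRCm38.p6), and each was matched to a single place on mm9, where it ends at the base before a start in the isoform tables. Of the 9 genes, 7 matched the RefSeq promoter table, and Pax4 and Insm1 did not. Searched on both strands were CANNTG, the E-box that basic helix-loop-helix factors such as Neurog3 and Neurod1 bind, its form CAGATG, and AAGTG, the core of NK2 homeodomain sites. Capitals mark a match to any of them. CAGATG is itself a CANNTG. Over the stretches of all 7 genes, shown or not, no CANNTG match overlapped an AAGTG match.
Neurog3, chr10:61595588-61595837, plus strand: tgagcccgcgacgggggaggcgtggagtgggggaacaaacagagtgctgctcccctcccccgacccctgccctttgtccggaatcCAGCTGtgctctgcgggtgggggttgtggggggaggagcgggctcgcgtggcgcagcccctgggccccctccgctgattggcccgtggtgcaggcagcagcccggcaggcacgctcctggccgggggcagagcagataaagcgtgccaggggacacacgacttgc
Pax6, first start, chr2:105508803-105509052, plus strand: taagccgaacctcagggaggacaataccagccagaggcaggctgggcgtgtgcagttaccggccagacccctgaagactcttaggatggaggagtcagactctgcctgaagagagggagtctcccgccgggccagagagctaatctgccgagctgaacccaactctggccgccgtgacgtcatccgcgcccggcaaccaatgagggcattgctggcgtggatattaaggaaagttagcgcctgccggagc
Rfx6, later start, chr10:51405074-51405323, plus strand: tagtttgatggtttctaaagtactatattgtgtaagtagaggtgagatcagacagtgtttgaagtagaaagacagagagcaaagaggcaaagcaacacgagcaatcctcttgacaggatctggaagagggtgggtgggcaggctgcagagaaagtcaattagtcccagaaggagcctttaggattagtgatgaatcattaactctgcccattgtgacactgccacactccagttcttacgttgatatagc

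The Neurog3 stretch holds 1 CANNTG and no AAGTG. The stretches before the first Pax6 start and the later Rfx6 start hold neither. Another Pax6 stretch, chr2:105522370-105522619, lies 6334 bases from the nearest start of the isoforms and is not shown. It holds 1 CANNTG and 1 AAGTG. For the earlier Rfx6 start, which led in every library, no stretch was available. Of 32851 such stretches in the table, 66.2% hold CANNTG, 14.4% CAGATG and 40.7% AAGTG, so a match or its lack is common. A match is a description of the letters and not a site of binding.

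Under other settings of the analysis Pax4 stayed the lowest of the 9 in each of the 16 alternatives that tested it. Pax6, Isl1 and Foxa2 stayed above 0 wherever they were tested, Rfx6 stayed below 0, and Neurog3, Neurod1, Insm1 and Foxa1 crossed 0. The p-values measure only the spread between these 6 samples.

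**Figure D5:**
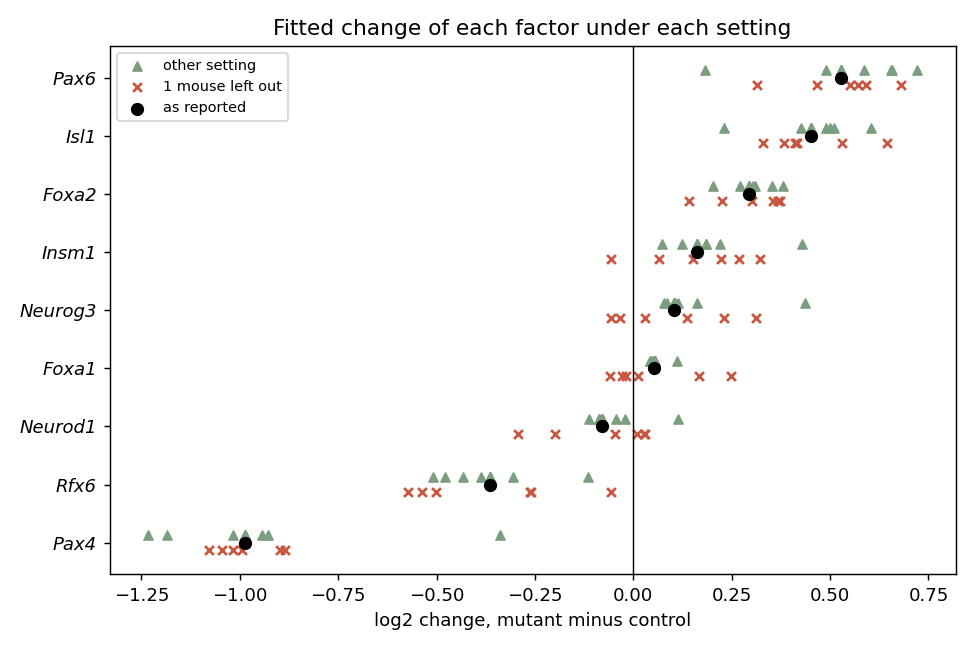
Fitted log2 change of each factor, mutant minus control, as reported (black), with 1 mouse left out (crosses) and under the other settings (triangles), on a linear axis. All Pax4 marks lie below 0, and the marks of Neurog3, Neurod1, Insm1 and Foxa1 fall on both sides of it.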

How the data were processed

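RNA-seq of duodenum from 3 control and 3 mutant mice was used. The submitters' processing notes name CASAVA 1.8.2, TopHat, Cufflinks, DESeq and mm9. Levels of genes and isoforms were deposited as FPKM with intervals, per the file headers. The authors' deposited comparison gives mean normalized counts per group as signal values, a fold change (ratio of means), its log2 value, and DESeq p-values, raw and adjusted, per the file headers.

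Of 23235 gene symbols, 209 lacked a successful estimate and 23026 were used, after 464 rows with a repeated symbol were dropped. No pair of libraries had identical values. Genes whose mean over the 6 libraries reached 0.2 FPKM were tested with limma 3.58.1 (R 4.3.3) on log2(FPKM + 0.1), with a trend and Benjamini-Hochberg adjustment over all genes, at a threshold of 0.05. Reads behind each FPKM were recovered from the coverage deposited for each isoform, its length and a read length of 101 bases. That read length and an offset to the isoform length were the ones giving most whole values (tolerance 0.05 of a read). The recovered reads are estimates, above all for isoforms. Of genes under 50 reads, 88.9 to 90.0% came out whole per library, and limma-voom on these reads called 0 genes (373 at an unadjusted p under 0.05). Ratios of summed reads have exact 95% intervals. On simulated data for this comparison with 14642 genes, 63 of 100 genes changed 2-fold and 90 of 100 changed 4-fold were recovered. There, 8 unchanged genes were also called. Both sets of changes were planted together, and the adjusted p depends on how many genes change. Recovery of a gene that changes alone was not simulated. The changed genes were drawn from those with a mean above 1 FPKM, a level that 4 of the 9 factors reach. Recovery at the lower levels of Pax4, Pax6, Isl1, Insm1 and Rfx6 was therefore not simulated. Named besides the 9 and their transcripts were the tested genes with the smallest limma p, up to 4 from the other endocrine transcription factors and up to 2 from every other list, the nearest 2 genes by likeness, and Nkx2-2. Ins2, Ctrb1, Muc6, Tff2 and Gif and the ratios between factors were chosen after their values were seen. The members and lists were chosen with earlier results of these data known. Alternatives were 6 fits that leave out a mouse and 11 other settings, of which the sex term, females only and scaling to endocrine genes were chosen after seeing the data.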

Additional observations from a re-analysis of the deposited data

Results flagged for a closer look

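Neurog3, Insm1 and Nkx2-2 are listed because the male pair went one way and the females the other. Neurog3 was at 2.67 FPKM in the male control and 1.77 FPKM in the male mutant, while female controls were at 1.76 to 2.33 FPKM and female mutants at 2.66 to 2.91 FPKM. The difference between the sexes in log2 change, female minus male, was 1.00 for Neurog3 (SE 0.35; limma interaction adjusted p = 0.9993), 0.80 for Insm1 (SE 0.52) and 1.09 for Nkx2-2 (SE 0.42). With 1 male a group, sex and that single mouse cannot be told apart. Such opposite directions were seen in 2 of the 9 factors and in 1907 of the 14642 genes tested.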

How the results depend on the processing

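Under 17 alternatives 0 of the 9 factors and 0 of the other pathway genes were called, and 0 of their transcripts under the 16 run on isoforms. At an unadjusted limma p under 0.05, Pax4 stood wherever it was tested, Pax6 with no trend and Isl1 without control 1. A minimum of 1 FPKM kept 4 of the 9. Of 148 recomputed changes of the factors 138 kept their sign and 10 turned. Over all genes, 0 were called (416 at an unadjusted p under 0.05), and 5 after scaling to endocrine genes. Leaving out each mouse gave 0 to 3 genes called. Whether the replicate numbers pair the mice was not settled. Same-numbered libraries correlated at 0.21, 0.053 and 0.22 in their deviations, and differently numbered ones at -0.26 to 0.064. Control 2 correlated best with mutant 3, and control 1 and mutant 1 are also the male pair. With the replicate block 1 gene was called, and 850 had an unadjusted p under 0.05. The median log2 change of the 9 was 0.38 in females only, and -0.06 to 0.27 with a mouse left out. In females only, Neurod1 turned to 0.11, Nkx2-2 to 0.27 and Prss2 to 0.39. With a mouse left out, the log2 change ran from -0.036 to 0.58 for Cela1, from -0.059 to 0.25 for Foxa1, from -0.058 to 0.32 for Insm1, from -0.29 to 0.029 for Neurod1, from -0.057 to 0.31 for Neurog3 and from -0.23 to 0.10 for Nkx2-2. The cause was not tested. The pseudocount moved the low genes, with Pax4 at -0.34 for a pseudocount of 1 and -1.23 for 0.01. Depth limits Pax4, at 4 to 14 reads a library.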
